A study of Homo sapiens with 9 samples.

Results

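Cells of the triple-negative breast cancer line MDA-MB-231 that overexpress the nuclear receptor TLX were compared with control cells of the same stated line, over all genes, by RNA sequencing. The comparison uses 6 of the 9 libraries of the study. Libraries S1 to S3 come from control cells that received a control siRNA (CTL+siCTL), and libraries S4 to S6 from TLX-overexpressing cells that received the same control siRNA (TLX+siCTL). In the other 3 libraries, S7 to S9, an siRNA to TLX was used on the overexpressing cells (TLX+siTLX), and their values stand beside those of the 6 only for orientation. All cells were plated 24 h before and transfected 48 h with siRNA, so both groups compared had received an siRNA, and libraries were made with a stranded mRNA kit, per the labels. By what construct TLX was raised, whether the overexpressing cells are 1 clone, and which sequences the siRNAs had are unknown from the labels. The control samples have PC3 in their titles, which the labels do not explain and which is the name of a prostate cancer line as well. Any difference of origin, passage or selection between control and overexpressing cells cannot be told apart from an effect of TLX. The labels do not say that the 3 replicates of a group were separate cultures, and the p-values then measure only the spread between these libraries.

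TLX, encoded by NR2E1, is an orphan nuclear receptor that binds DNA at a short motif, AAGTCA, and is known mostly as a repressor that recruits corepressors and histone-modifying enzymes. It is best known from the brain and retina, where it keeps neural stem cells proliferating and undifferentiated. Transcript levels are given as log2 CPM, the log2 of a read count scaled to library size, which compares a gene between libraries but not 1 gene with another. In that unit 1 step is a 2-fold change and a gene without reads lies at -5.33. NR2E1 (GRCh38 chromosome 6, 108166058 to 108188809) lay close to that floor in the control libraries, at -4.59 in S1, -4.28 in S2 and -4.50 in S3. The overexpressing libraries had 0.28, -0.84 and 0.23, and after the siRNA against TLX values were -2.61, -3.40 and -1.77. NR2E1 therefore stayed under 1 in each library, the mean log2 CPM from which genes are called expressed below. Every overexpressing library was thus above every control library, and the limma log2 fold change was 4.35 ± 0.47 (SE, Benjamini-Hochberg adjusted p = 0.000133, n = 3 and 3). The control value rests on about 4.80 reads in all 3 libraries together against 243 in TLX+siCTL, so a ratio of reads is 46.7 with a wide counting interval of 19.4 to 149.5 (exact 95%).

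Depth was similar in the libraries compared, with an effective size between 73.9 and 91.8 M reads, and each library had no read for 18.4% to 19.8% of its genes. Genes that mark MDA-MB-231 were high in both groups. The intermediate filament gene VIM was at 10.64 to 10.69 in control and 10.00 to 10.05 in TLX+siCTL libraries, a fall of 0.64 ± 0.06 (SE, limma), while the receptor tyrosine kinase gene AXL went from 8.97 to 9.00 up to 10.08 to 10.15, a rise of 1.13 ± 0.04. CD44, CAV1 and EGFR also rose, by 0.46, 0.96 and 0.34, so 4 of these 5 markers rose and 1 fell. Of 3 genes that are low in triple-negative lines, the estrogen receptor gene ESR1 was between -2.88 and -1.78 in all 6 libraries and the progesterone receptor gene PGR fell, from -0.84, -0.76 and 1.14 to -2.22, -2.88 and -2.02. ERBB2 rose by 0.22 from a level of 6.17 to 6.18. Of genes of the prostate lineage, KLK2, KLK3 and FOLH1 stayed at or under -3.31 in all 6. SLC45A3 fell by 0.28 and TRPM8 by 1.65, the latter from values between -1.67 and -0.94. The prostate line of that name is known to lack KLK3, so these markers do not separate it from MDA-MB-231. In bulk RNA, fewer cells with a transcript and less of it per cell cannot be told apart.

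The difference between both groups reached far beyond a few target genes. Of 27548 rows, 4142 rose and 4162 fell at a limma adjusted p under 0.05, 30.1% in all. Changes of at least 2-fold were fewer, with 652 rises (2.37%) and 1079 falls (3.92%). Among 12564 rows with a mean of at least 1 log2 CPM, called expressed genes here, 29.3% rose and 27.4% fell, and 2.66% and 4.27% did so at least 2-fold. Control and TLX+siCTL libraries did not overlap for 71.5% of the expressed genes and 41.4% of all rows. The share called grew with level, from 3.51% of rows under -3 to 65.4% of rows at 7 or above. Centring each library on the median of all rows moved the median fold change of all rows up by 0.12 and gave 5578 rises and 3015 falls (64.9% rises in place of 49.9%). For gene groups, the counts under this centring are given where the direction turned or a count moved by over 1.5 times.

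Among the largest rises in TLX-overexpressing cells was that of TLR4, the receptor for bacterial lipopolysaccharide (chromosome 9, 117704175 to 117724730). It went from 2.99, 2.99 and 3.01 to 6.88, 6.86 and 7.01, a log2 fold change of 3.92 ± 0.06 (SE, limma adjusted p = 1.06e-08). Its spread within each group was small beside that step, and its values after the TLX siRNA were 6.57, 6.53 and 6.40. FAT3, an atypical cadherin, rose by 2.87 ± 0.17 from -0.44 to -0.17 up to 2.35 to 2.80. ILDR2, a membrane protein of tricellular contacts, rose by 2.60 ± 0.19, and NGFR, the low-affinity neurotrophin receptor, by 2.39 ± 0.15.

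Other large rises included a placental family, genes of DNA replication and single genes of other kinds. The pregnancy-specific glycoproteins PSG6 (2.33 ± 0.14) and PSG3 (2.21 ± 0.20) are normally made by the placenta. These genes lie side by side on chromosome 19 and are near-identical, so reads may be split between them and their single values are uncertain. DDO, the enzyme that oxidises D-aspartate, was at -0.15, -0.57 and -0.14 in control and at 1.88, 1.80 and 1.86 in TLX+siCTL libraries (2.13 ± 0.15, SE), with no overlap. MARCHF4, a membrane-bound ubiquitin ligase, rose by 2.11 ± 0.12, and CCDC190, a coiled-coil gene, by 2.25 ± 0.10. A further 5 of the largest rises lay between 2.11 and 2.45. They were MCM10 and GINS2 of DNA replication, PKMYT1, a kinase that holds back mitosis, ZNF367 and FAM111B.

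Of the 15 largest falls, 8 were of surface, transport and secreted proteins. CD24, a mucin-like surface protein used as a stem cell marker in breast cancer (chromosome 6, 106969831 to 106975627), went from 4.26, 3.82 and 3.99 to 0.81, 0.84 and 0.21, a log2 fold change of -3.40 ± 0.20 (SE, limma adjusted p = 4.77e-06). CD24 has near-identical pseudogenes that can take or lend reads. SLC14A1, the urea transporter, went from 6.02, 5.93 and 5.76 to 2.80, 2.98 and 2.26 (-3.22 ± 0.22). No library of one group reached the range of the other for CD24 or SLC14A1, and with 1.72, 1.66 and 1.01 SLC14A1 was lower again after the TLX siRNA. The flippase ATP10A (-3.13 ± 0.13), the organic anion transporter SLCO4C1 (-2.81 ± 0.13) and the iron-siderophore binder LCN2 (-3.06 ± 0.17) fell to a similar degree. So did VNN3, of the pantetheinase family (-2.99 ± 0.20), and 2 protease inhibitors, elafin (PI3, -2.77 ± 0.20) and SPINT1, which restrains hepatocyte growth factor activator and matriptase (-2.74 ± 0.11).

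Signalling and nuclear proteins were among the largest falls too. SOX4, a transcription factor of progenitor cells, was at 5.34, 5.30 and 5.19 in control and at 2.68, 2.57 and 2.28 in TLX+siCTL libraries (-2.76 ± 0.11, SE), and at 4.20, 4.49 and 4.30 after the TLX siRNA. PTGS2, the inducible cyclooxygenase, went from 9.99, 9.93 and 9.77 to 7.23, 7.26 and 6.91 (-2.76 ± 0.18). TRIML2 (-3.33 ± 0.11), the Ras-association protein RASSF9 (-2.90 ± 0.30), the glycosyltransferase B4GALNT3 (-2.85 ± 0.15), the Rap GTPase-activating protein SIPA1L2 (-2.75 ± 0.15) and the small GTPase RND1 (-2.73 ± 0.31) complete the 15. The plot of these genes shows that control and TLX+siCTL libraries separate for each of them, which the choice of these genes required. In the authors' deposited table, made from the same libraries, 352 of 352 genes change in the same direction with a false discovery rate under 0.05. This set holds NR2E1, the genes with the largest changes and up to 3 rises and 3 falls per list. All of them were called here, and not every gene in the text is among them. The match is therefore no independent support.

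**Figure D1:**
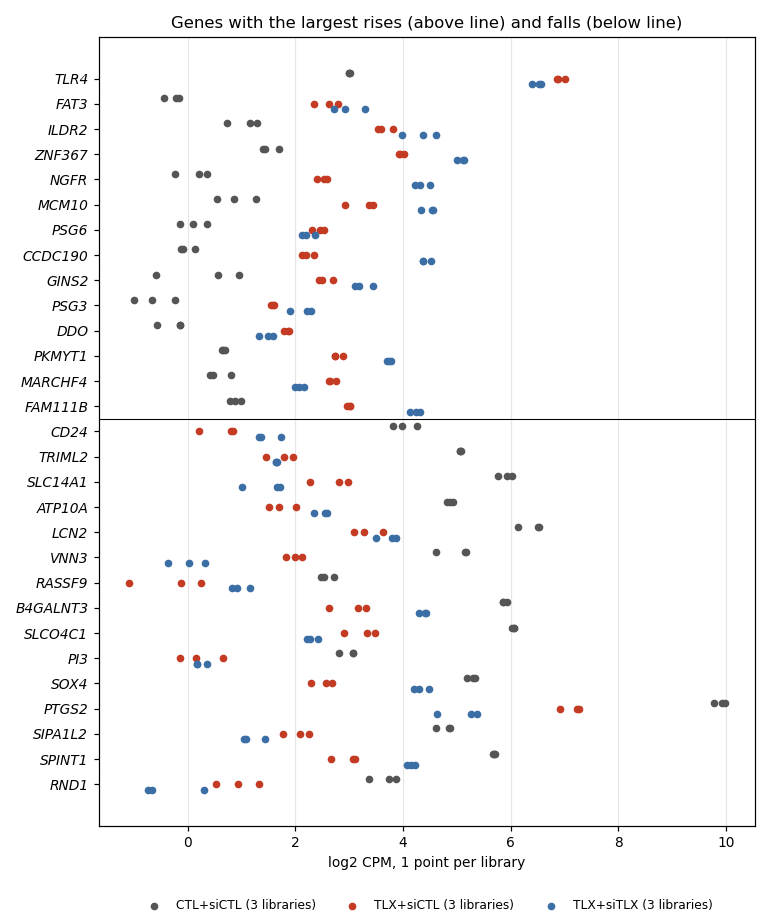
Levels (log2 CPM, horizontal axis) of 14 of the genes with the largest rises (above the line) and the 15 with the largest fall (below it), 1 point per library, for control (grey), TLX+siCTL (red) and TLX+siTLX (blue) libraries. TLR4 moves from between 2.99 and 3.01 to between 6.86 and 7.01, and PTGS2 from between 9.77 and 9.99 to between 6.91 and 7.26.

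A few genes went from near silence to expression or back. With every library of one group under -3 and every library of the other at 0 or above, 3 genes were expressed in TLX+siCTL and near the floor in control cells, and 1 was the reverse. DAPK1, a calmodulin-regulated kinase that promotes cell death (chromosome 9, 87497228 to 87708633), was at 2.82, 2.44 and 1.26 in control libraries and at -4.83, -4.74 and -4.75 in TLX+siCTL. That is about 1154 reads in the 3 control libraries against 2.92 in the 3 TLX+siCTL libraries, a ratio of 428 (exact 95% counting interval 144 to 2144). DAPK1 stayed at -4.57, -3.98 and -4.92 after the TLX siRNA, and so near the floor in all 6 libraries of overexpressing cells. FER1L6, of the ferlin family of membrane fusion proteins (chromosome 8), was at -3.53, -4.29 and -4.27 in control and 1.04, 1.13 and 1.26 in TLX+siCTL libraries. Its 9.00 control reads faced 544, a ratio of 55.8 (29.2 to 122.8). SPANXB1, a sperm protein gene of the X chromosome, went from between -4.75 and -3.69 to between 0.51 and 1.01, a ratio of 65.5 in reads (29.9 to 179.6), and has near-identical copies. UTP14C, a retrocopy of the nucleolar gene UTP14A, had no read in control and 0.38 to 1.45 in TLX+siCTL. In reads it rose by at least 129.3-fold, the lower end of the exact 95% counting interval. Since it was also nearly silent in S7, at -4.69, against 0.44 and 0.05 in S8 and S9, and shares its sequence with UTP14A, its value is uncertain. FMOD, encoding the matrix proteoglycan fibromodulin, missed the rule: it went from 1.93, 1.83 and 1.94 to -3.51, -2.32 and -2.09 and was picked out after its values were seen.

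The fold changes were not spread evenly over the genome. Long stretches of neighbouring genes were shifted together by a small step, some up and some down. The median over expressed genes was 0.34 on chromosome X, 0.28 on chromosome 21, 0.27 on chromosome 7 and 0.25 on chromosome 6, and -0.27 on chromosome 12, against 0.01 for all expressed genes. On chromosome 7, 54.7% of 585 expressed genes rose and 11.8% fell, and on chromosome 12, 11.7% of 613 rose and 53.2% fell. The background for both was 29.3% rising and 27.4% falling. In windows of 10 Mb with at least 20 expressed genes, 61 of 227 windows had a median of 0.2 or more in size, 34 of them up and 27 down, and the medians ran from -0.79 to 0.55. Windows of 5 Mb gave 47 of 213, with 22 up and 25 down and medians from -0.59 to 0.65.

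**Figure D2:**
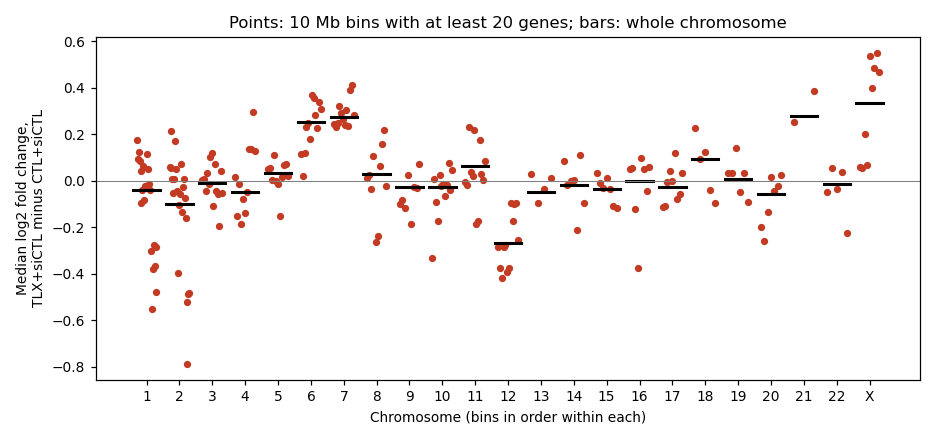
Median log2 fold change of TLX+siCTL against control for expressed genes (vertical axis) in each 10 Mb window with at least 20 such genes (points, in order within a chromosome) and for each whole chromosome (bars), by chromosome (horizontal axis). Most chromosomes lie around 0, while chromosomes 6, 7, 21 and X lie above, chromosome 12 lies below, and the ends of chromosomes 1 and 2 lie lowest.

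The edges of the shifted stretches were read from these windows, so the values that follow describe them and carry no test. Beyond 210 Mb on chromosome 2, 107 of 133 expressed genes fell and 4 rose, with a median of -0.53 and quartiles of -0.82 and -0.32. Chromosome 1 beyond 170 Mb had 194 falls and 17 rises among 276 genes, with a median of -0.37. On chromosome X beyond 70 Mb, 154 of 201 genes rose and 8 fell, with a median of 0.48 and quartiles of 0.27 and 0.68. Chromosome 6 beyond 80 Mb had 151 rises and 35 falls among 239 genes and a median of 0.34. Taken over all its expressed genes, chromosome 12 was shifted down, with quartiles of -0.51 and -0.03, but not in every window. Its 10 Mb windows from base 90000001 to base 130000000 had medians between -0.17 and -0.09, short of the limit of 0.2. Chromosome 7, taken in the same way, was shifted up, with quartiles of 0.02 and 0.51.

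The 3 libraries of a group were close to each other in these stretches. Relative to the control mean, the median gene of chromosome X beyond 70 Mb was at 0.49, 0.47 and 0.49 in S4 to S6. For chromosome 2 beyond 210 Mb the values were -0.53, -0.52 and -0.58, and for chromosome 12 they were -0.27, -0.26 and -0.28. Single control libraries were within 0.01 of 0 in each of these 3 stretches, so no library of one group reached the other. The TLX+siTLX libraries, compared with the same control libraries, had 0.43, 0.38 and 0.38 on X, -0.43, -0.41 and -0.42 on chromosome 2 and -0.21, -0.20 and -0.26 on chromosome 12. All 6 libraries of overexpressing cells were therefore shifted in the same direction in these stretches, with either siRNA. On chromosomes 3, 5, 17 and 19 the medians lay between -0.045 and 0.034 in S4 to S6 and between -0.099 and 0.051 in S7 to S9. DNA content of the cells was not measured, and whether it differs between control and overexpressing cells was not tested.

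**Figure D3:**
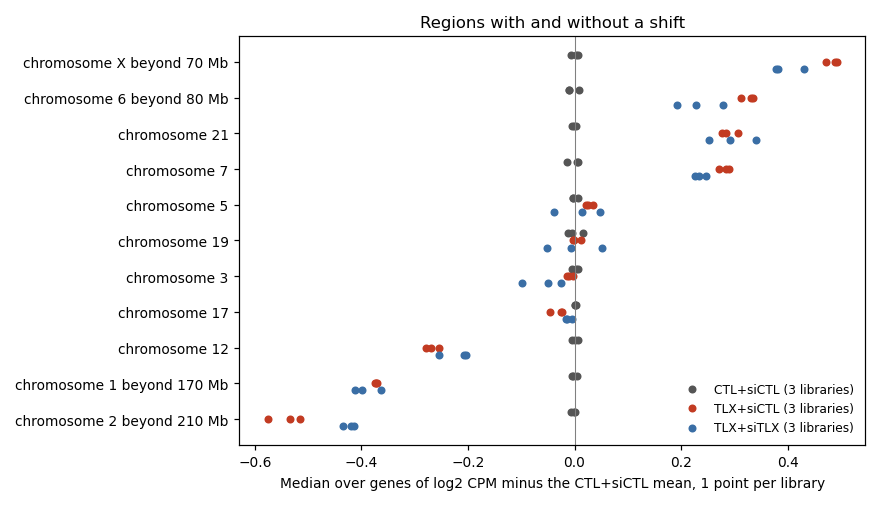
Median over expressed genes of the log2 CPM minus the control mean (horizontal axis) in 7 shifted stretches and on 4 chromosomes without a shift, 1 point per library, for control (grey), TLX+siCTL (red) and TLX+siTLX (blue) libraries. Red and blue points lie on the same side of the control points in every shifted stretch, from about -0.58 on chromosome 2 to 0.49 on chromosome X.

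Individual genes moved with or against the stretch they lie in. Of the 30 genes with the largest changes, 8 lay in shifted windows, which hold 2576 of the 12564 expressed genes. Windows with fewer than 20 expressed genes were not scored and count as outside, even within a shifted stretch. RASSF9 on chromosome 12 lies in such an unscored window and is not among the 8. RND1, RASSF9 and B4GALNT3 fell on chromosome 12, where most genes fell, and PTGS2 and SIPA1L2 on the end of chromosome 1. DDO rose on the end of chromosome 6 together with its neighbourhood, whereas CD24 and VNN3 fell in the same stretch. MARCHF4 rose by 2.11 in the stretch of chromosome 2 where 80.5% of the genes fell. Outside the shifted windows 2722 of 9988 expressed genes rose (27.3%) and 2597 fell (26.0%), with a median of 0.01, so most calls lie outside these windows. For gene groups the count outside the shifted windows is given where it bears on the group. Single genes named further below are not always marked when they lie in a shifted window. For example, L1CAM, NRCAM, CLIC5 and GPER1 rose in windows shifted up, and DOCK10, ENO2 and LPAR5 fell in windows shifted down. KCNE4 and RGS17 moved against their windows.

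The transcripts made inside mitochondria moved as 1 group. The mitochondrial genome encodes 13 subunits of the respiratory chain and the ATP synthase, and 12 of these genes fell while 0 rose, where 27.4% of all expressed genes fell. The list was added after the values had been seen. MT-CO1, the core subunit of cytochrome oxidase, was at 11.32, 11.31 and 11.43 in control and at 10.62, 10.69 and 10.65 in TLX+siCTL libraries, a fall of 0.70 ± 0.06 (SE, limma adjusted p = 5.39e-05). MT-ND6, the complex I subunit that is read from the opposite strand to the others, went from 6.96, 6.87 and 7.16 to 5.85, 5.95 and 6.02, a fall of 1.06 ± 0.10. Control and TLX+siCTL libraries did not overlap for either. MT-CO3 fell by 0.66, MT-ND4 by 0.66, MT-ND1 by 0.63 and MT-ND2 by 0.27, and the weakly detected MT-ATP8 had -0.65 ± 0.30 (adjusted p = 0.152). The overlapping pairs MT-ATP8 with MT-ATP6 and MT-ND4L with MT-ND4 can share reads. After the TLX siRNA MT-ND6 was at 7.35, 7.66 and 7.64 and MT-CO1 at 11.40, 11.57 and 11.60, above most control values. Under each of 3 other scalings 11 of the 13 fell.

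**Figure D4:**
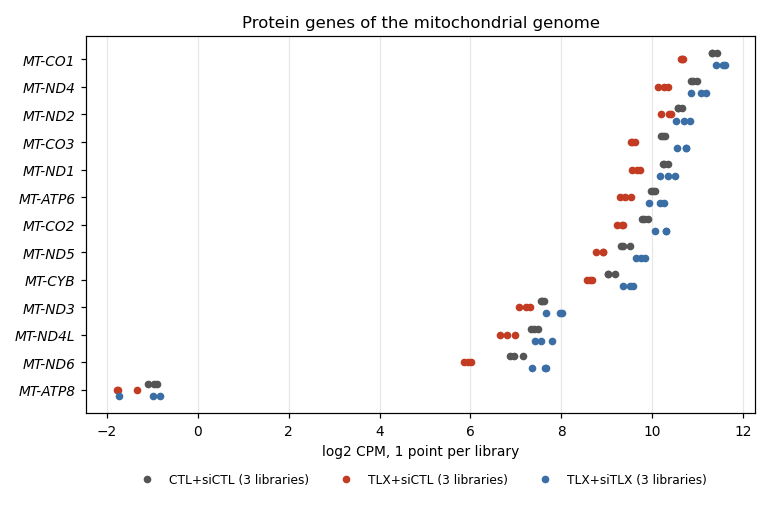
Levels (log2 CPM, horizontal axis) of the 13 protein genes of the mitochondrial genome, 1 point per library, for control (grey), TLX+siCTL (red) and TLX+siTLX (blue) libraries. TLX+siCTL libraries lie below the control libraries for each gene, as for MT-ND6 at 5.85 to 6.02 against 6.87 to 7.16.

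Nuclear genes of the mitochondrial ribosome and of protein import into mitochondria rose more often than they fell. Of 78 mitochondrial ribosomal protein genes 32 rose (41.0%) and 10 fell (12.8%), with a median log2 fold change of 0.13, where 29.3% of all expressed genes rose and 27.4% fell. Of 36 genes of mitochondrial protein import 15 rose and 4 fell (median 0.15). MRPS6 rose by 0.97 ± 0.05 (SE) and MRPL11 by 0.60 ± 0.04, both ribosome subunits, and the import chaperone TIMM8A by 1.13 ± 0.08. MRPS6, MRPL11 and TIMM8A lie in windows that were shifted up. MRPL44 on the shifted end of chromosome 2 fell by 0.51 ± 0.04. Outside the shifted windows 21 of 57 ribosomal and 11 of 29 import genes rose, and 5 and 2 fell. With all rows centred 43 ribosomal genes rose and 4 fell, and 20 import genes rose and 2 fell.

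Ribosome biogenesis and nucleotide synthesis had the highest shares of rises among the lists other than the 5 cell line markers. Of 91 genes of ribosome biogenesis, which act in the nucleolus on ribosomal RNA, 58 rose (63.7%) and 8 fell (8.79%), with a median of 0.25, where 29.3% and 27.4% of all expressed genes did so. Counted outside the shifted windows, 49 of 72 rose and 4 fell, and with all rows centred 69 of the 91 rose and 5 fell. DKC1, the pseudouridine synthase of small nucleolar particles, went from 5.99, 5.91 and 5.88 to 7.09, 7.13 and 7.19 (1.21 ± 0.09, SE). LTV1, an assembly factor of the small subunit, rose by 0.85 ± 0.07, and CD3EAP, an RNA polymerase I subunit, by 0.95 ± 0.10. DKC1 and LTV1 lie in windows that were shifted up. The helicase DDX10 stood against the group: it fell from 8.85, 8.84 and 8.62 to 6.82, 6.89 and 6.65 (-1.99 ± 0.08) and was lower again, at 6.10, 6.01 and 5.93, after the TLX siRNA. Of 38 genes of purine and pyrimidine synthesis and salvage 24 rose and 5 fell (median 0.30), and 19 of 28 rose outside the shifted windows. The 24 rises included NT5E, the surface enzyme CD73 that makes adenosine (1.26 ± 0.07). PFAS of the purine pathway rose by 1.11 ± 0.07 and HPRT1 of purine salvage by 0.83 ± 0.06. NT5E and HPRT1 lie in windows that were shifted up. DPYD, which degrades pyrimidines, fell by 0.78 ± 0.03.

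The machinery of protein turnover and transport through the nuclear pore followed. Of 46 proteasome genes 23 rose (50%) and 5 fell (10.9%), with a median of 0.16. Among all expressed genes 29.3% rose and 27.4% fell. The rises were led by the assembly chaperones PSMG4 (1.12 ± 0.06, SE) and PSMG1 (0.90 ± 0.06). PSMG1 lies in a window that was shifted up. Of the 38 outside the shifted windows, 18 rose and 4 fell. Of 62 nucleoporin and karyopherin genes 29 rose (46.8%) and 10 fell (16.1%), with a median of 0.16. The rises included NUP205 (1.05 ± 0.07) and NUP155 (0.69 ± 0.04) of the inner ring. NUP205 lies in a window that was shifted up. NUP210, a membrane nucleoporin that is expressed in a cell-type specific way, went from 6.87, 6.86 and 7.04 to 5.54, 5.47 and 5.32, a fall of 1.48 ± 0.08 with no overlap. Of 37 aminoacyl-tRNA synthetase genes 18 rose (48.6%) and 7 fell (18.9%), and WARS1, the tryptophan enzyme, fell by 0.79 ± 0.04. Of 214 splicing genes, of which 117 were expressed, 55 rose (25.7%) and 17 fell (7.94%). That is 33.6% called, near the 30.1% of all rows. With all rows centred the falls were fewer, with 3 in the proteasome, 5 among nucleoporins and karyopherins, 4 among the synthetases and 10 among splicing genes. The vacuolar proton pump had 12 rises (50%) and 2 falls (8.33%) among 24 genes, or 14 and 1 with that centring. Its tissue-restricted subunits moved apart, ATP6V0A4 up by 1.49 ± 0.07 and ATP6V0D2 down by 1.85 ± 0.11.

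**Figure D5:**
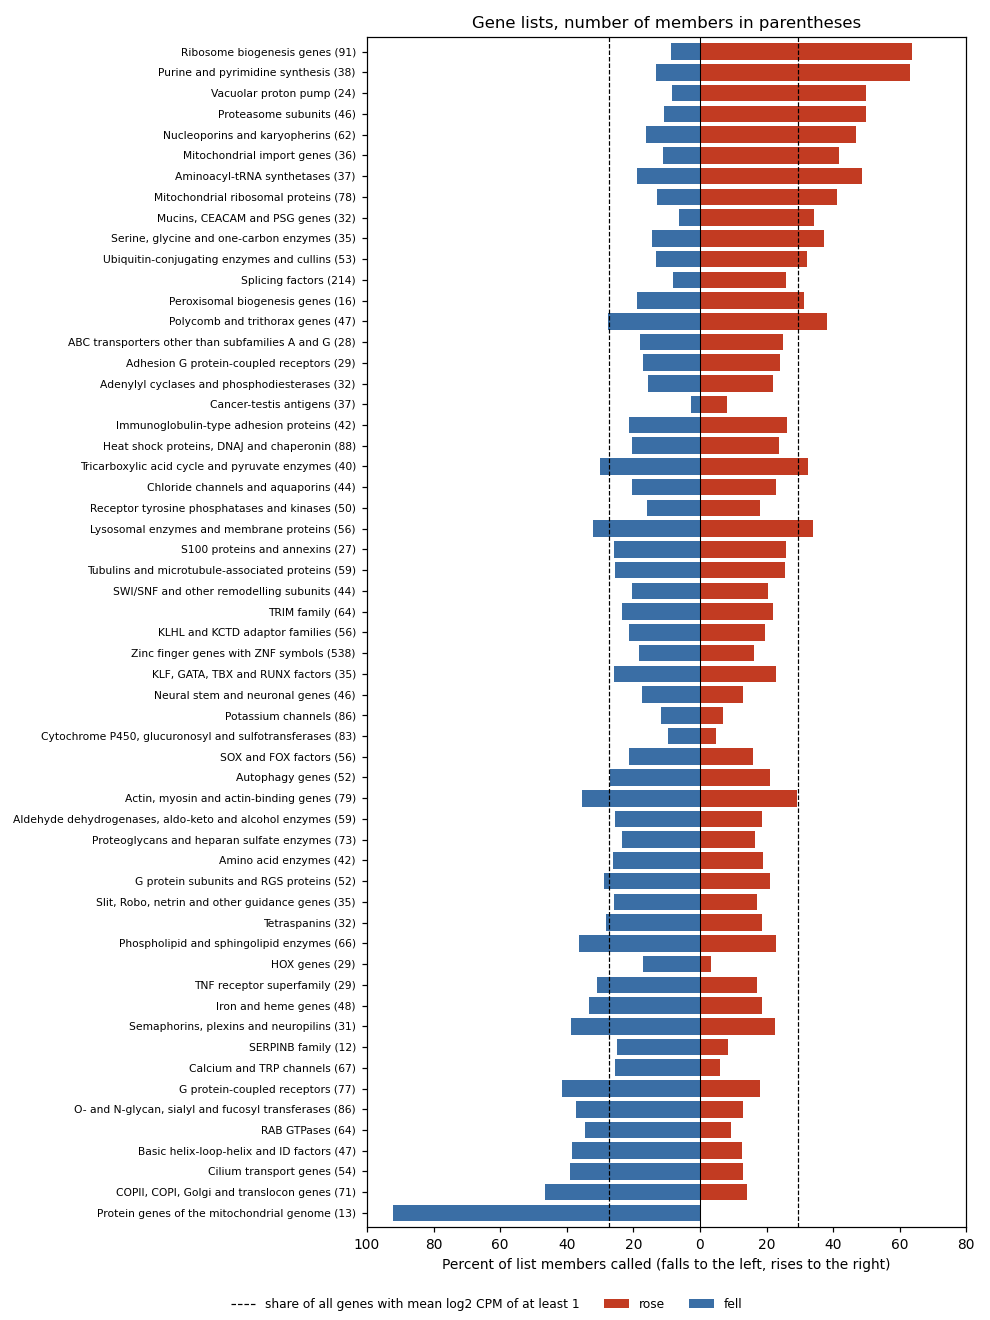
Share of the members of each gene list shown that fell (blue, to the left) or rose (red, to the right), in percent of all members with a row, with the number of members in parentheses. Dashed lines mark the same shares among all expressed genes, 27.4% and 29.3%, and lists with many unexpressed members have short bars. Ribosome biogenesis stands at 63.7% rises and the mitochondrial genome at 92.3% falls.

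The secretory pathway fell more often than it rose, though this depends on scaling in part. Of 71 genes of vesicle coats, Golgi structure and the translocon 33 fell (46.5%) and 10 rose (14.1%), with a median of -0.15. Among all expressed genes 27.4% fell and 29.3% rose. Outside the shifted windows 27 of 57 fell and 3 rose. With libraries centred on the median of all rows falls still outnumbered rises, at 17 against 15. SEC23B, a COPII coat subunit, went from 7.88, 7.85 and 7.78 to 7.10, 7.16 and 7.08 (-0.72 ± 0.05, SE), and the retrieval receptor KDELR3 fell by 0.61 ± 0.05. Of 64 RAB GTPases, which mark and move vesicles, 47 were expressed, and 22 fell (34.4%) and 6 rose (9.38%). With the same centring 16 fell and 8 rose. Falls of at least 2-fold numbered 7, and the largest were of RAB3B by 1.71 ± 0.11, RAB37 by 1.70 ± 0.16 and RAB38 of lysosome-related organelles by 1.44 ± 0.12. RAB37 was at 2.84, 2.54 and 2.55 after the TLX siRNA, near its control values of 2.87, 2.92 and 3.13. HSPA5, the main chaperone of the endoplasmic reticulum, went from 12.23, 12.21 and 12.03 to 11.21, 11.30 and 11.26, a fall of 0.90 ± 0.07. Over all 88 heat shock, DNAJ and chaperonin genes 21 rose (23.9%) and 18 fell (20.5%).

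Enzymes that build sugar chains fell more often than they rose. Of 86 transferases of O- and N-glycans, sialic acid and fucose, 56 of them expressed, 32 fell (37.2%) and 11 rose (12.8%), with a median of -0.28. Among all expressed genes 27.4% fell and 29.3% rose. With all rows centred 27 of the 86 fell and 14 rose. Of the 73 outside the shifted windows, 27 fell and 9 rose. Without S6 the list had 7 rises. B4GALNT3 went from 5.86, 5.86 and 5.94 to 3.31, 3.17 and 2.63 and the branching enzymes GCNT4 and GCNT3 fell by 2.03 ± 0.13 and 1.36 ± 0.12 (SE). Of 32 mucin, CEACAM and PSG genes, 13 of them expressed, 11 rose (34.4%) and 2 fell (6.25%). That is 40.6% called, against 30.1% of all rows, and 10 of the rises were at least 2-fold. They included PSG6, PSG3 and PSG8 (2.04 ± 0.19), and the transmembrane mucin MUC1 went against them with a fall of 1.77 ± 0.10, from 6.07, 5.84 and 6.06 to 4.31, 4.25 and 4.11. Of 73 proteoglycan and heparan sulfate genes 17 fell (23.3%) and 12 rose (16.4%), or 14 and 18 with all rows centred. 11 of the falls were at least 2-fold, against 0 such rises, among them CSGALNACT1, which starts chondroitin chains (-2.06 ± 0.14), the sulfotransferase HS6ST3 (-1.93 ± 0.13) and the syndecan SDC2 (-1.62 ± 0.10).

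Receptors that signal through G proteins fell more often than they rose, while adhesion receptors and receptor tyrosine kinases had slightly more rises than falls. Of 77 G protein-coupled receptors, of which 46 were expressed, 32 fell (41.6%) and 14 rose (18.2%), with a median of -0.23. That is 59.7% called, against 30.1% of all rows and 56.6% of expressed genes. A separate list of 29 adhesion G protein-coupled receptors had 7 rises and 5 falls, with 3 falls without S3 or without S4, and 50 receptor tyrosine kinases and phosphatases had 9 rises and 8 falls, or 12 and 5 with all rows centred. Of the 60 outside the shifted windows, 26 fell and 11 rose. Rises numbered 9 without S2, without S4 or without S5. The lysophosphatidic acid receptor LPAR5 went from 2.45, 2.65 and 2.59 to 0.70, 0.79 and 0.68 (-1.84 ± 0.11, SE), the orphan receptor GPRC5C fell by 1.80 ± 0.12 and the formyl peptide receptor FPR1 by 1.83 ± 0.17. Rises were seen for the membrane estrogen receptor GPER1 (1.41 ± 0.17) and the endothelin receptor EDNRB (1.38 ± 0.16). ADGRG1, an adhesion receptor also called GPR56, was at 3.65, 3.58 and 3.48 in control, 5.14, 5.10 and 5.04 in TLX+siCTL and 6.39, 6.40 and 6.55 after the TLX siRNA. Downstream, the regulators RGS17 (-1.84 ± 0.09) and RGS2 (-1.73 ± 0.15), which switch off G proteins, fell, and 15 of 52 genes of G protein subunits and RGS proteins fell while 11 rose. With all rows centred this turned to 12 falls and 13 rises.

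Most genes of ion and water channels were not expressed. Of 67 calcium and TRP channel genes, 23 of them expressed, 17 fell and 4 rose, which is 31.3% called and near the 30.1% of all rows. The auxiliary subunit CACNG7 went from 3.50, 3.37 and 3.50 to 1.38, 1.57 and 1.09 (-2.11 ± 0.15, SE) and the ATP-gated channel P2RX4 fell by 1.02 ± 0.09, while the mechanosensitive PIEZO1 rose by 0.31 ± 0.05. Among 86 potassium channel genes 10 fell and 6 rose (18.6% called), or 11 and 11 on the log2(CPM + 1) scale, with KCNQ3 down by 2.37 ± 0.29 and KCNE4 up by 1.86 ± 0.10. Of 44 chloride channel and aquaporin genes, 20 of them expressed, 10 rose and 9 fell (43.2% called). The water and glycerol channel AQP3 was at 4.16, 3.96 and 4.00 in control, 2.06, 2.02 and 1.80 in TLX+siCTL and 3.52, 3.78 and 3.82 after the TLX siRNA. CLIC5, a chloride channel protein of the membrane skeleton, rose by 2.05 ± 0.23.

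Because TLX is known from neural stem cells, genes of neural tissue and of axon guidance were listed. Of 46 neural stem and neuronal genes only 14 were expressed, and 6 rose and 8 fell. That is 30.4% of the list, near the 30.1% called among all rows. STMN3, a neuronal stathmin, rose by 1.76 ± 0.13 (SE) and the adhesion proteins NRCAM and L1CAM by 1.12 ± 0.22 and 0.92 ± 0.05, while NLGN1, ENO2 and TUBB3 fell by 1.25 ± 0.15, 1.10 ± 0.06 and 0.86 ± 0.08. With S2 or S5 left out, 3 members rose in place of 6. Of 31 semaphorins, plexins and neuropilins 12 fell (38.7%) and 7 rose (22.6%), or 61.3% called, against 56.6% of expressed genes. Rises numbered 4 without S1, S2, S4, S5 or S6. SEMA3F, a secreted repellent, went from 4.33, 4.35 and 4.26 to 2.69, 2.66 and 2.59 (-1.67 ± 0.09), and its receptor NRP2 from 4.92, 5.04 and 5.22 to 4.01, 4.05 and 3.95 (-1.06 ± 0.07). NRP2 was at 5.37, 5.44 and 5.48 after the TLX siRNA, above its control values.

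Members of the Slit, Robo and netrin systems changed by large steps in both directions. Of 35 genes 6 rose (17.1%) and 9 fell (25.7%), or 42.9% called, against 30.1% of all rows and 56.6% of expressed genes. At least 2-fold were 4 of the rises and 5 of the falls. NTN4, a basement membrane netrin, was at 7.46, 7.40 and 7.42 in control and 5.21, 5.22 and 4.95 in TLX+siCTL (-2.30 ± 0.07, SE), and the receptor ROBO1 fell by 2.16 ± 0.19. The ligand SLIT2 rose by 1.35 ± 0.10, ROBO4 by 1.11 ± 0.08 and the netrin receptor NEO1 by 1.42 ± 0.13. SLIT2 and its receptor ROBO1, and NTN4 and NEO1, thus moved in opposite directions. Of 42 adhesion genes of the immunoglobulin type 11 rose (26.2%) and 9 fell (21.4%), or 47.6% called, also between both shares. CXADR was up by 1.16 ± 0.08 and the junction proteins ESAM and F11R were down by 2.10 ± 0.11 and 1.26 ± 0.06.

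Transcription factor families were mixed, with single members far from the rest. Besides SOX4, the endoderm factor FOXA2 went from 6.15, 6.10 and 6.07 to 3.79, 3.78 and 3.54 (-2.40 ± 0.10, SE) and FOXQ1 fell by 1.31 ± 0.06, while SOX9 rose by 0.80 ± 0.05 from 5.29 to 5.33 up to 6.08 to 6.19. In all, 12 of 56 SOX and FOX genes fell and 9 rose, and 8 of the falls but 1 of the rises were at least 2-fold. Outside the shifted windows 5 rose and 11 fell. Of 47 basic helix-loop-helix and ID factors 18 fell and 6 rose (median -0.17), including MXD1, an antagonist of MYC (-1.17 ± 0.09), and ID2, an inhibitor of differentiation factors (-1.10 ± 0.16). The luminal breast factor GATA3 rose by 0.93 ± 0.13, and KLF4 and KLF5 fell by 0.91 ± 0.06 and 0.80 ± 0.08. Of 538 ZNF genes 87 rose and 99 fell, which became 132 and 61 with all rows centred, so no direction can be given. Of 47 Polycomb and trithorax genes 18 rose and 13 fell, or 22 and 7 with all rows centred, within a narrow range, as for the rises of PHF19 (0.70 ± 0.08) and CBX6 (0.76 ± 0.05).

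Genes of cell shape and movement also changed in both directions. The exchange factor DOCK9 rose from 7.82, 7.80 and 7.72 to 9.19, 9.49 and 9.28 (1.54 ± 0.09, SE) and was at 8.27, 8.24 and 8.03 after the TLX siRNA, and DOCK3 rose by 1.58 ± 0.07, while DOCK10 fell by 1.97 ± 0.07. RND1 and RND3, which lower contractility, fell by 2.73 ± 0.31 and 1.36 ± 0.08. Of 79 actin and myosin genes 28 fell and 23 rose, or 21 and 29 with all rows centred. Among them the actin-severing GSN rose by 1.12 ± 0.08 and the formin DIAPH3 by 1.39 ± 0.06, while MYO5C fell by 1.97 ± 0.13. STMN1, which destabilises microtubules, rose from 5.88, 5.88 and 5.86 to 7.30, 7.27 and 7.28 (1.41 ± 0.03). Of 54 genes of transport in cilia 21 fell and 7 rose, which turned to 10 and 12 with all rows centred. S100A4, a calcium-binding protein linked to metastasis, went from 6.28, 6.35 and 6.33 to 8.35, 8.27 and 8.37 (2.01 ± 0.08), and S100P in the opposite direction by -2.37 ± 0.14. Their groups did not overlap in either case.

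In metabolism the larger changes were of single enzymes. IDH1, the cytosolic isocitrate dehydrogenase, went from 8.76, 8.74 and 8.75 to 7.50, 7.43 and 7.27 (-1.35 ± 0.09, SE) and was at 7.02, 6.83 and 6.64 after the TLX siRNA. KYNU, an enzyme of tryptophan breakdown, went from 8.31, 8.30 and 8.27 to 6.57, 6.51 and 6.35 (-1.81 ± 0.08). Both lie on chromosome 2, but outside the shifted stretch beyond 210 Mb. Of 35 genes of serine, glycine and one-carbon metabolism 13 rose and 5 fell: spermine synthase SMS and AMD1 of polyamine synthesis rose by 0.93 ± 0.05 and 0.79 ± 0.04, and the mitochondrial enzymes SHMT2 and MTHFD2 fell by 0.78 ± 0.05 and 0.50 ± 0.05. Of 66 phospholipid and sphingolipid genes 24 fell and 15 rose, or 19 and 20 with all rows centred. PLA2G4A, which frees arachidonic acid from membranes, fell from 3.43, 3.32 and 3.18 to 0.94, 0.97 and 0.74 (-2.43 ± 0.17), and SPTLC3, a subunit of the first enzyme of sphingolipid synthesis, rose by 1.85 ± 0.10. The retinoid enzymes DHRS3, CYP26B1 and ALDH1A3 fell by 1.77 ± 0.11, 1.16 ± 0.07 and 1.16 ± 0.15.

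Promoters of the changed genes were searched for AAGTCA, the motif that TLX binds, on either strand, that is AAGTCA or TGACTT. The RefSeq windows used run from 250 bases before to 50 after a start site in GRCh38.p14. Of all 35116 windows 12.5% held the motif, and of the windows of expressed genes that could be matched 8.38% did. The share was 7.93% for genes that rose, 9.22% for genes that fell and 8.10% for those that did neither. For genes changed at least 2-fold it was 11.8% of 346 windows for rises and 9.44% of 551 for falls. These shares carry no test, and a window with the motif is a description, not a site. The genes looked up one by one were the 30 with the largest changes and the 4 near the floor in 1 group. Of these 34 genes, 23 had a window in the table, 30 windows in all, and 2 of these genes held the motif in the 250 bases before the start. Both rose, and their sequences are shown with the motif in capitals, 5′ to 3′ on the strand of the gene, for DDO at chr6:110415576-110415825 on the minus strand and for MCM10 at chr10:13161308-13161557 on the plus strand, where the motif reads on the opposite strand.
DDO: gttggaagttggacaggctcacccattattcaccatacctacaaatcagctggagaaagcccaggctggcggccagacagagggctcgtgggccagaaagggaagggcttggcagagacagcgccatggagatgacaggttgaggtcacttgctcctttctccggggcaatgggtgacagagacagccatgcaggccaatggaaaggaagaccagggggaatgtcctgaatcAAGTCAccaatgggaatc
MCM10: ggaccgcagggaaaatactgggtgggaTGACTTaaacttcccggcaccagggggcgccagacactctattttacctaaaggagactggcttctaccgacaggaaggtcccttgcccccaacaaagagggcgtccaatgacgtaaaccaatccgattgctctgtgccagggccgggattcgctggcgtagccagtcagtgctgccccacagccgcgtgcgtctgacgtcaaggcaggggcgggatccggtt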

How the data were processed

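RNA of 9 libraries was analysed, 3 per group. The authors deposited log2 CPM values for 27548 genes, and a table of fold changes, written as signed scores, with raw p-values and false discovery rates. GRCh38, edgeR, limma and kallisto 0.44.0 are listed without roles, per the submitters' processing notes. The test behind the deposited p-values was not given in the sources used here. Every column names its group, and 0 value columns stayed unmapped.

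The deposited log2 CPM values were fitted with limma 3.58.1 (R 4.3.3), with a mean per group over all 9 libraries and a trend of the variance with level. Tests were two-sided at 0.05 after Benjamini-Hochberg adjustment over every row. The code was tested on simulated data. Fold changes carry the moderated SE and, because the deposited values hold a prior count of 2, understate changes of genes with few reads. Reads were rebuilt from the values above the floor, and their intervals (95%) cover counting error only.

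Genes were placed with GENCODE 29, which held 24790 identifiers. Named are NR2E1, markers, the 15 largest rises and falls among called, expressed genes whose groups do not overlap, up to 3 of each kind per list, and genes near the floor in 1 group. Some genes and 1 list that this rule names are not reported here. Members and lists were chosen with earlier results of these data known, and no list was tested. Alternatives were other scalings, log2(CPM + 1), a filter, no trend, 6 libraries alone and leaving out each library.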

Additional observations from a re-analysis of the deposited data

How the results depend on the processing

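Counts of rises and falls stayed within 1.5 times of 4142 and 4162 under every alternative run. They ranged from 3522 to 3632 rises and 3491 to 3706 falls when 1 library was left out, and lay at 3096 and 3171 without the genes in shifted windows, an alternative chosen after seeing the data. NR2E1 stayed a rise throughout, between 4.16 and 4.71 with 1 library left out, and 0.92 on the log2(CPM + 1) scale. Of 351 called genes that the naming rule selects, 15 lost their call in at least 1 setting, among them ERBB2, SLC45A3, TAGLN, ALDH5A1 and PLCXD1, and 0 reversed. With limits of -2 and 1 log2 CPM in place of -3 and 0, 1 gene (FER1L6) was on and 2 (DAPK1 and FMOD) were off in TLX+siCTL. Of 1708 list counts compared 148 moved by more than 1.5 times, 30 of them with all rows centred and 39 without the shifted windows, the latter because fewer members are counted. No paired analysis was possible because the columns carry a running number and not the replicate numbers of the labels, and the planned replicate block was not run. Depth limits DAPK1, NR2E1, FER1L6, SPANXB1 and UTP14C, which rest on fewer than 10 reads in 1 group.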

Other observations

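Further families changed in both directions, where 29.3% of all expressed genes rose and 27.4% fell. Of 56 lysosomal genes 19 rose (33.9%) and 18 fell (32.1%), near those shares, or 23 and 10 with all rows centred. The protease CTSF rose by 1.05 ± 0.04 (SE, limma) and the sulfatase activator SUMF1 fell by 0.72 ± 0.05. Of 52 autophagy genes 11 rose (21.2%) and 14 fell (26.9%), or 18 and 11 with all rows centred. EPG5, a tether of autophagosomes, rose by 1.05 ± 0.06. Of 40 genes of the tricarboxylic acid cycle and pyruvate entry 13 rose (32.5%) and 12 fell (30%), again near the shares of all expressed genes. With all rows centred 18 rose and 6 fell. The pyruvate carrier MPC1 rose by 0.82 ± 0.07. Iron and heme genes numbered 16 falls (33.3%) and 9 rises (18.8%) among 48, or 13 and 14 with all rows centred. Apart from LCN2 they included the mitochondrial iron importer SLC25A37, which fell by 0.78 ± 0.03, and the transferrin receptor TFRC, which rose by 0.44 ± 0.04.

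Among 53 ubiquitin-conjugating enzymes and cullins 17 rose (32.1%) and 7 fell (13.2%), with all rows centred 28 rose and 2 fell, and without S4 11 rose. Without the variance trend 10 rose and 4 fell, and with the 6 libraries alone 20 rose and 12 fell. TRIM genes numbered 14 rises (21.9%, 9 without S6) and 15 falls (23.4%) of 64, or 16 and 10 with all rows centred. KLHL and KCTD genes numbered 11 rises (19.6%) and 12 falls (21.4%) of 56, which turned to 13 and 11. These shares lay below the 29.3% and 27.4% of all expressed genes. HOX genes were mostly silent: of 29 only 4 were expressed, and HOXD1 went from 4.20, 4.16 and 4.21 to 3.15, 3.18 and 3.21 and to 2.66, 2.70 and 2.69 after the TLX siRNA. Among 32 tetraspanins 9 fell (28.1%) and 6 rose (18.8%), or 7 and 8 with all rows centred, and TSPAN13 fell by 2.01 ± 0.08. Cancer-testis antigens were nearly all unexpressed, with 2 of 37 expressed, 3 rises and 1 fall, or 3 and 0 with all rows centred. That is 10.8% called, against 30.1% of all rows.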
